A study of Homo sapiens and Mus musculus with 54 samples.

Results

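A set of 13464 regions, of 106666 in the H3K27ac list of untreated HepG2 cells, were chosen by their coordinates: no row of the H3K27ac list of the AhR-inhibitor experiment in the same cell line had the same chromosome, start and end. They are called the missing regions, and the 93202 untreated-list regions found with identical coordinates in the inhibitor list are called the shared regions. The difference is one between lists and is not an effect of the inhibitor, since neither list is divided by treatment. HepG2 is a human liver cancer cell line. The series holds 54 ChIP-seq libraries, 30 of them from HepG2, all of which were taken on day 12. The inhibitor experiment had 2 vitamin B2-deficient libraries with an AhR inhibitor, 2 B2-deficient libraries with DMSO and 2 control libraries with DMSO. The untreated experiment had 5 B2-deficient and 5 control H3K27ac libraries, while the ChIPs for AhR and for C/EBPα each had 2 B2-deficient and 2 control libraries. The lists give positions on hg38 with no value for any library, so depth is unknown, no condition was compared and no test was made. The sources used here do not say which libraries or peak sets went into each list. The 95% Wilson intervals cover counting error over regions only, and are too narrow because neighbouring regions are not independent.

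No missing region overlapped any region of the inhibitor list by even 1 bp. The nearest inhibitor-list region lay a median of 9587 bp away, with quartiles of 2146.5 and 30944 bp. At the edge of the rule, the closest gap was 1 bp, and 884 missing regions (6.57%) had the centre of an inhibitor-list region within 500 bp. All 93202 shared regions carried the same name in both lists. The inhibitor list held 3943 further regions, and 0 of them overlapped the untreated list. No 2 regions within the untreated list overlapped either. The sources used here do not say whether both lists were taken from 1 merged set of regions; if they were, the absence of overlap follows from how the lists were made and says nothing of how far apart the peaks of the experiments lay. The liver label held for the untreated list, with each region counted only for its nearest protein-coding gene within 50 kb. Of 11 hepatocyte markers, 10 had at least 1 such region, and the median was 22 regions each. APOA1 had 0, which does not mean that no region lay within 50 kb of it. The median was 3.5 for the cholangiocyte markers, 3.5 for the stellate cell markers, 3 for the endothelial markers and 1 for the macrophage markers.

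Acetylation of histone H3 at lysine 27 marks nucleosomes beside active enhancers and promoters. The aryl hydrocarbon receptor (AhR) is a ligand-activated transcription factor that, with its partner ARNT, binds DNA at a core GCGTG element and induces genes of foreign-compound metabolism. C/EBPα is a leucine-zipper factor that occupies many enhancers of liver genes and binds sites related to TTGCNNAA.

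The missing regions that lay across gene starts are shown first, because they are the ones whose sequence could be read. Windows of 300 bases around the starts of protein-coding genes, from RefSeq on GRCh38.p14, the assembly of hg38, covered 23 chromosomes. Of 22183 windows for 15843 genes, 21937 were crossed by no untreated-list region, 227 by a shared region and 19 by a missing region. Few windows were thus crossed by any region of the list, and the 19 is to be read beside the 227. The 5 sequences are those with at least 200 bases inside a window, or at least 150 bases and an AhR peak. GATA3 encodes a zinc-finger factor of T cells and epithelia, and its stretch is chr10:8045150-8045382 on the plus strand. The VSIG10L2 stretch is chr11:125945794-125946030 and the TMEM132B stretch is chr12:125186142-125186435, both on the plus strand. KCNH2 encodes the potassium channel that repolarizes heart muscle, and its stretch is chr7:150974992-150975214 on the minus strand. OR1F1 encodes an olfactory receptor, and its stretch is chr16:3187954-3188130 on the plus strand. Capitals mark a TTGCNNAA match in GATA3, matches to GCGTG read on the opposite strand in KCNH2, and the part of the proline tRNA gene TRP-TGG3-5 inside the stretch at OR1F1. Each stretch runs 5′ to 3′ on the strand of its gene.
GATA3: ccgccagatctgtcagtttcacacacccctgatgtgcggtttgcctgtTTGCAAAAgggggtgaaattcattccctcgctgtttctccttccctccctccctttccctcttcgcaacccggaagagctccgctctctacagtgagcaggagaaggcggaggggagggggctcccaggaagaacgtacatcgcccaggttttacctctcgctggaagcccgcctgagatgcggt
VSIG10L2: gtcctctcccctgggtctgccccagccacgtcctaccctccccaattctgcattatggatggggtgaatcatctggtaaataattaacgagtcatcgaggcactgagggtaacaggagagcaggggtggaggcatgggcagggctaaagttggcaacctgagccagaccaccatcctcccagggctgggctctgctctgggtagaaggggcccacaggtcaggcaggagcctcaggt
TMEM132B: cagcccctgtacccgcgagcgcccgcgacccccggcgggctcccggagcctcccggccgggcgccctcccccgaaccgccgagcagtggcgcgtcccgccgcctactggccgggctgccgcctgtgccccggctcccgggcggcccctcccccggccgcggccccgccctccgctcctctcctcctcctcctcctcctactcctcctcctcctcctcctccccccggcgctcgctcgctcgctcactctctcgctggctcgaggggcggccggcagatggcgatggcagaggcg
KCNH2: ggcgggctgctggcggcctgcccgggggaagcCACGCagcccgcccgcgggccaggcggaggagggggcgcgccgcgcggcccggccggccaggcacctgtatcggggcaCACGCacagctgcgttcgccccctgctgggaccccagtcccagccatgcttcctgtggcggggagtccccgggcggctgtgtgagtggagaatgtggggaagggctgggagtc
OR1F1: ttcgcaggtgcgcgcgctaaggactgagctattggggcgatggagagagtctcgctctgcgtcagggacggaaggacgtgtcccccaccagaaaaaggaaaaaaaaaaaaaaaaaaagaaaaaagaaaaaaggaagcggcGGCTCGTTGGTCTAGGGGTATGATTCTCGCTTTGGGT

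These 5 stretches differed widely in composition. The TMEM132B stretch had 79.6% G or C and 39 CpG, the KCNH2 stretch 76.7% and 22 CpG, the GATA3 stretch 58.4% and 12 CpG, the VSIG10L2 stretch 59.1% and 3 CpG, and the OR1F1 stretch 50.3% and 13 CpG. Of the 5, only OR1F1 had an AhR peak, and none had a C/EBPα peak. The OR1F1 stretch, of 177 bases, was shown only because it had that peak, so the AhR count over the 5 follows from the choice. Over the 19 start windows crossed by missing regions, the median was 57% G or C and 8 CpG, against 65% and 21 CpG in the 227 windows crossed by shared regions and 62.3% and 21 CpG in all windows. GCGTG, searched on both strands, was in 3 of 19 windows crossed by missing regions (15.8%, interval 5.52 to 37.6%), against 98 of 227 crossed by shared regions (43.2%), with 43.0% of all windows holding it. TTGCNNAA, also searched on both strands, was in 5 of 19 (26.3%, 11.8 to 48.8%), against 9.25% of windows crossed by shared regions and 8.69% of all windows. No match of one motif can overlap a match of the other. AhR peaks were on 2 of the 19 regions and C/EBPα peaks on 2. Starts on chromosome 8, which held 672 missing regions, were not analysed here.

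The missing regions were narrow, and many were isolated. Their width, end minus start, had a median of 261 bp and a maximum of 678 bp, against a median of 287 bp and a maximum of 3070 bp in the shared regions. Regions found only in the inhibitor list were narrow too, with a median of 269 bp and a maximum of 643 bp. The share of untreated-list regions that were missing was 25.5% (1958 of 7673) at widths of 200 to 220 bp, 9.05% at 301 to 350 bp, 2.31% at 401 to 500 bp, and 0.412% (25 of 6067) above 500 bp. Among regions with no other untreated-list region within 10 kb, 26.9% (5991 of 22249) were missing. That share was 15.9% with 1 such neighbour, 7.42% with 3 or 4, 4.33% with 5 to 8 and 0.739% (5 of 677) with 17 or more. The missing regions had a median of 1 neighbour, against 3 for the shared regions. The widest missing region, chr12:84128385-84129063, was 678 bp, and the next, chr3:72875132-72875804, was 672 bp and had a C/EBPα peak. The following were chrX:72030088-72030716 at 628 bp, chr17:31580700-31581318 at 618 bp and chr3:67948100-67948693 at 593 bp. Widths, neighbours and the merge numbers described next come from the untreated list and are descriptions of the members.

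**Figure D1:**
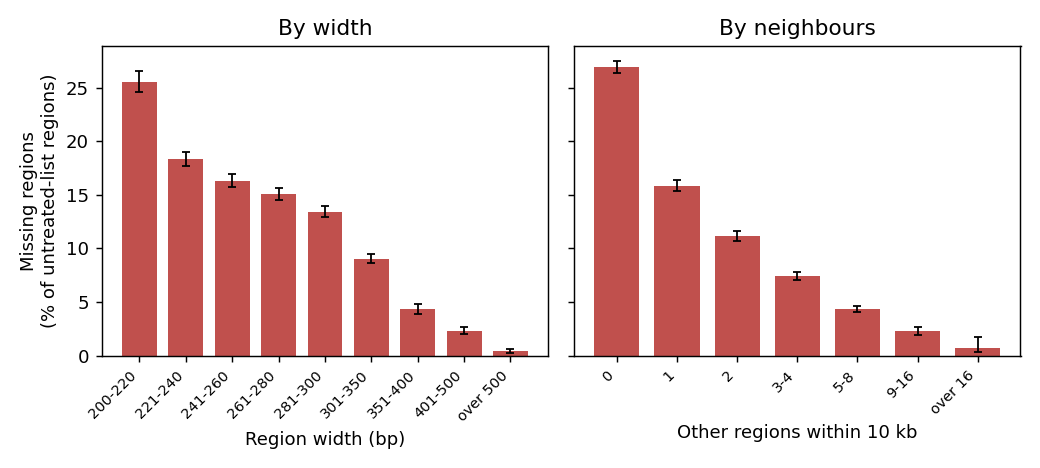
Share of untreated-list H3K27ac regions that were missing from the inhibitor list (percent) by region width in bp and by the number of other regions within 10 kb; bars are shares and lines are 95% Wilson intervals. The share is lower at each step of both, and is 0.412% above 500 bp and 0.739% with more than 16 neighbours.

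Each region name ends in a number that, in the form HOMER gives to merged peaks, counts the peaks joined into the region, called the merge number. Shared regions had the same name, and so the same merge number, in both lists. The number may therefore count peaks joined across both experiments, in which case a region with no peak in the inhibitor experiment would have a lower number by construction; this was not tested. Among the missing regions, 4855 (36.1%) had merge number 1, 8605 (63.9%) had 2 and 4 had 3 or more. Among the shared regions, 18437 (19.8%) had 1, 72483 (77.8%) had 2 and 2282 (2.45%) had 3 or more. The share missing was 20.8% at merge number 1, 10.6% at 2 and 0.175% (4 of 2286) at 3 or more.

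AhR peaks lay on fewer of the missing regions. They overlapped 3129 of the 13464 missing regions by at least 1 bp (23.2%, interval 22.5 to 24.0%), against 39.9% of the shared regions, where 37.8% of all untreated-list regions had one. C/EBPα peaks lay on 2316 missing regions (17.2%, 16.6 to 17.8%), against 30.6% of the shared regions and 28.9% of all. Both factors lay on 1453 missing regions (10.8%), against 23.7% of the shared regions and 22.1% of all, while 9472 missing regions (70.4%) had neither, against 53.2% of the shared. The difference held on all 24 chromosomes for each factor, with a mean of -18.6 ± 2.79 percentage points for AhR and -14.2 ± 3.39 for C/EBPα (SD over chromosomes), missing minus shared. When shared regions were weighted to the missing regions' mix of width, merge number and neighbour classes, 39.1% had an AhR peak and 28.7% a C/EBPα peak. The 3943 regions found only in the inhibitor list had lower shares still. AhR peaks lay on 9.36% of them and C/EBPα peaks on 9.51%, and 84.7% had neither. Low shares were therefore not particular to the missing regions.

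The gap depended on the merge number. At merge number 1, 16.6% of missing regions had an AhR peak (15.6 to 17.7%), against 15.6% of shared regions (15.0 to 16.1%), and the missing share was lower on 13 chromosomes and higher on 11, with a mean difference of -0.914 ± 3.53 percentage points (SD over 24 chromosomes), missing minus shared. At merge number 2, the AhR share was 27% (26.1 to 28.0%) in missing regions, against 46.2% in shared regions, and it was lower on 24 of 24 chromosomes. At merge number 1, C/EBPα peaks lay on 14.2% of missing regions (13.2 to 15.2%), against 13.9% of shared regions (13.4 to 14.4%), with a mean difference over chromosomes of -0.684 ± 4.57 points. At merge number 2 they lay on 18.9% of missing regions, against 34.9% of shared regions. Where a missing region had a C/EBPα peak, 62.7% also had an AhR peak, and without one 15.0% did; the shares were 77.5% and 23.4% among shared regions. AhR peaks on missing regions were merged, with merge number 2 or more, in 32.1% of cases, against 51.9% on shared regions, and C/EBPα peaks in 68.1%, against 73.4%. Both peaks lay on 1090 missing regions of merge number 2, the widest of which was chr1:212628869-212629300, with GARIN4 the nearest gene.

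**Figure D2:**
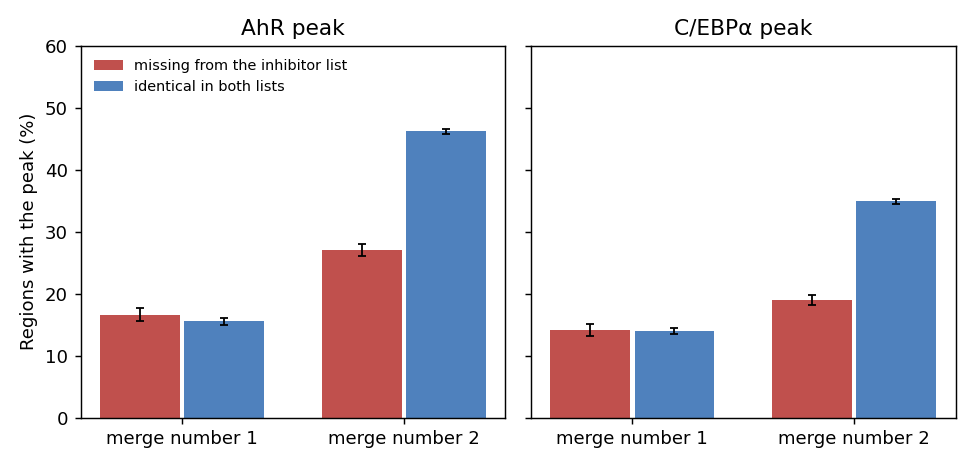
Percent of missing and of shared H3K27ac regions that overlap an AhR or a C/EBPα peak, at merge numbers 1 and 2; bars are shares and lines are 95% Wilson intervals. The 2 sets are close at merge number 1 (16.6% and 15.6% for AhR) and apart at merge number 2 (27% and 46.2%).

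The missing share was uneven over chromosomes. It was 4.06% on chromosome 20 (211 of 5192 regions), 6.87% on 16, 8.11% on 17, 8.65% on 2, 9.46% on 14 and 9.64% on 6, the 6 lowest, and 23.7% on X (412 of 1742), the highest, with a median of 14.7% over the autosomes. The class mix, the average missing share of the width, merge and neighbour classes of the regions on a chromosome, was 9.86% on chromosome 20, 10.3% on 16 and 14.8% on X. This mix is calculated from the missing regions themselves and is not an independent expectation. Among isolated regions, with no other within 10 kb, 10.8% were missing on chromosome 20 and 43.2% on X. Chromosome 20 also had 80.8 untreated-list regions per Mb, against 11.4 on X. HepG2 is known to carry extra copies of chromosomes 2, 14, 16, 17 and 20 and of part of 6. Copy number was not measured in these lists, and its part in the shares was not tested. AhR shares of missing regions ranged from 9.95% on chromosome 20 to 29.1% on X, and those of shared regions from 25.9% to 52.0% over autosomes and X.

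Several chromosomes were split along their length, in stretches chosen after 10-Mb windows had been seen. On chromosome 14, 2.0% of regions from 20 to 40 Mb were missing (30 of 1500, against a class mix of 10.3%), and 13.4% from 40 to 110 Mb were (374 of 2791, class mix 12.1%). Chromosome 6 had 6.93% from 0 to 50 Mb (class mix 11.1%), 17.5% from 50 to 110 Mb (16.2%) and 9.25% from 110 to 180 Mb (13.5%). Chromosome 17 had 12.6% from 0 to 40 Mb (class mix 12.4%) and 6.23% from 40 to 90 Mb (8.94%). Of 10-Mb windows with at least 100 regions, the lowest were 30 to 40 Mb of chromosome 14 (1.65%) and of chromosome 20 (2.16%), and the highest was 160 to 170 Mb of chromosome 4 (30.1%).

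**Figure D3:**
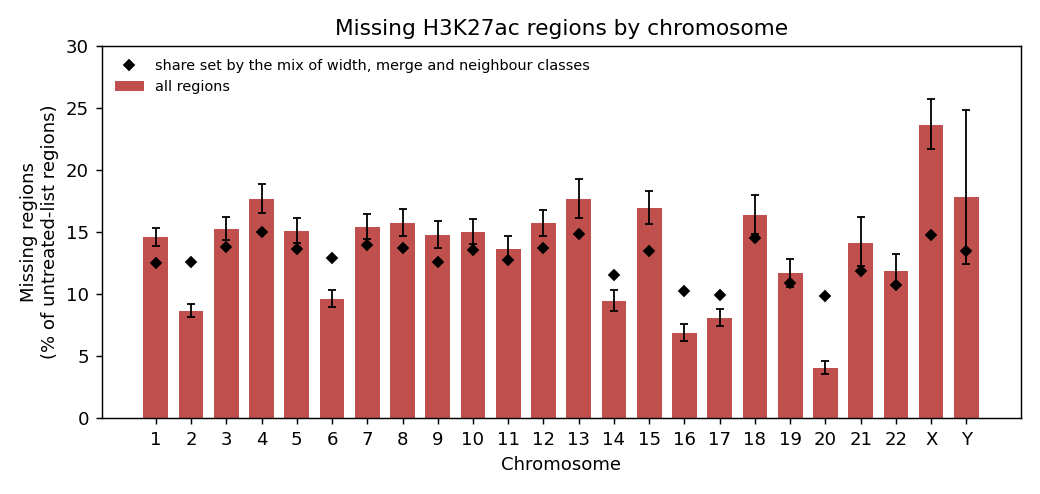
Percent of untreated-list H3K27ac regions missing from the inhibitor list on each chromosome; bars are shares, lines are 95% Wilson intervals, and diamonds are the share set by the chromosome's mix of width, merge number and neighbour classes. Chromosomes 2, 6, 14, 16, 17 and 20 lie below their diamonds, and X lies above its own, at 23.7% beside 14.8%.

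Missing regions lay singly or in runs along a chromosome. A run is a row of missing regions with no shared region between them, whatever the distance. There were 9904 runs, of which 7407 held 1 region, 1756 held 2 and 741 held 3 or more. In runs of 2 or more were 45.0% of missing regions, or 31.5% with runs limited to neighbours within 50 kb. The share that the overall missing rate or the isolation of these regions would give was not calculated, so runs are descriptions only. The longest run, chr6:101011220-103155251, held 10 regions over 2144 kb around GRIK2, a glutamate receptor subunit gene, and 3 of the 10 had AhR peaks. A run of 8 regions at chr16:62041470-63458789 lay over no protein-coding gene and had no AhR peak, whereas one of 8 at chrX:68794598-69158730, around EFNB1, a membrane-bound ephrin ligand, had 4. At chr4:177265790-177426684, around NEIL3, a DNA glycosylase, 7 regions ran together and 4 had AhR peaks. Further runs of 7 lay at chr10:127881289-128088622, by CLRN3 and PTPRE, and at chr9:30996797-31808247.

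The missing regions lay farther from genes. Inside or touching a protein-coding gene lay 5198 missing regions (38.6%), against 53.1% of shared regions. Over 50 kb from every such gene lay 3248 missing regions (24.1%), against 14.9% of shared regions. Within 3 kb of a gene end lay 853 missing regions (6.34%), against 9.86% of shared regions. Of all untreated-list regions, 12.6% were missing. Among regions over protein-coding genes the share was 9.51% (class mix 12.9%), and over lncRNA genes it was 13.1% (2214 of 16916, class mix 12.2%). Over tRNA genes it was 11.7% (20 of 171, interval 7.70 to 17.4%), near that of all regions, with a class mix of 6.21%. Of the 20 tRNA-overlapping missing regions, 9 lay between 27162165 and 28812237 on chromosome 6 and 5 on chromosome 1. AhR peaks lay on 4 of these 20, beside 79 of all 171 regions over tRNA genes.

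In all, 10216 missing regions had a protein-coding gene within 50 kb, of 89528 untreated-list regions that did (11.4%), and they were assigned to 6157 genes. TENM2, a teneurin of neuronal adhesion, had the most, 12 of its 20 regions. MAGI2, a scaffold protein, had 11 of 33, PALM2AKAP2 had 11 of 42, ZFHX3, a large zinc-finger and homeodomain factor, had 11 of 70, ROBO2, a receptor for the guidance cue SLIT, had 10 of 25, and TRABD2B had 10 of 62. PRKAG2, the gamma subunit gene of AMP-activated kinase, had 9 of 18, DAPK2, a calcium-dependent kinase, 9 of 24 and TNS1, a focal adhesion protein, 9 of 64. This ranking is by count and takes no account of gene length, which ran from 139 kb at DAPK2 to 1743 kb at ROBO2. The shares ran from 14.1% at TNS1 to 60% at TENM2. Among genes with 5 or more regions, every region was missing at NEIL3 (6 of 6, 3 with AhR peaks), PTPRE, a tyrosine phosphatase (5 of 5, 2 with AhR), and ZIC2, a zinc-finger factor of forebrain development (5 of 5, 2 with AhR). The ZIC2 regions ran from chr13:99977621 to 100025124, and 3 of the 5 had C/EBPα peaks.

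Genes of the AhR pathway had a share of missing regions near that of all assigned regions. AHR itself had 0 of 4 regions missing and CYP1A1, the cytochrome P450 gene best known as an AhR target, 0 of 2. AHRR, the AhR repressor, had 3 of 9, at chr5:318675-318935, chr5:319030-319329 and chr5:337817-338088, the last inside the gene, and 0 of the 3 had an AhR peak, beside 4 of all 9. CYP1B1, another AhR-induced P450, had 1 of 2, chr2:38109803-38110039, with a C/EBPα peak. TIPARP, an AhR-induced ADP-ribosyltransferase, had 2 of 9, and 1, chr3:156749336-156749571, had an AhR peak. Over the list of 15 AhR targets and feedback genes, 12 of 103 regions were missing (11.7%, 6.79 to 19.3%, class mix 8.97%), beside the 11.4% of all assigned regions, and within 10 kb of the gene 3.75% were, where 10.2% of all were. CYP1A2 had 2 of 3 missing and IDO1, a tryptophan-degrading enzyme, had 2 of 2. Each region was counted for its nearest gene only, and CYP1A1, which ends at chr15:74725528, lies close to CYP1A2, which starts at chr15:74748845. The 0 of 2 at CYP1A1 therefore does not mean that no region near it was missing.

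The hepatocyte, gluconeogenesis, acute phase and integrated stress response lists had the lowest missing shares of the 16 lists. The list of hepatocyte identity and secreted protein genes had 8 of 435 regions missing (1.84%, 0.935 to 3.59%), where its class mix gave 4.65%. The class mix takes no account of chromosome. Without chromosomes 2, 6, 14, 16, 17 and 20, which had the lowest shares, the list had 7 of 246 missing (2.85%, 1.39 to 5.76%). A class mix was not calculated under this restriction, and the full list's 4.65% is not a like value to set beside it. All assigned regions gave 13.9% under the same restriction. ALB had 0 of 39 regions missing, APOB 0 of 56, HNF4A 0 of 30 and SERPINA1 0 of 32, while NR5A2 and ONECUT1 had 2 each and FOXA2 and TF 1 each. Gluconeogenesis genes had 2.96% (6 of 203, 1.36 to 6.30%, class mix 5.98%) and acute phase genes 3.45% (6 of 174, 1.59 to 7.32%, class mix 6.15%). Integrated stress response genes had 3.73% (6 of 161, 1.72 to 7.89%, class mix 7.33%). These 3 intervals lie below the 11.4% of all assigned regions, and each holds its list's class mix. KLF15, a glucose-regulating factor, had 3 of 20, SOCS3, the cytokine signal suppressor, had 3 of 18 and SLC7A11, the cystine transporter, had 2 of 8. Isolated regions of the hepatocyte genes gave 2 of 15 missing (13.3%, 3.74 to 37.9%), an interval that holds the 24.2% of all isolated regions near a gene.

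PPARA and fatty acid oxidation genes had 6.57% missing (13 of 198, class mix 9.56%), led by PPARGC1A, the coactivator of mitochondrial and gluconeogenic genes, with 6 of 27; AhR peaks lay on 4 of the 6 and on 18 of all 27. Lipogenesis genes had 7.11% (16 of 225, class mix 8.16%), with AGPAT2 and LPIN1, enzymes of triglyceride synthesis, at 3 each. Sterol genes had 7.03% (9 of 128, class mix 7.40%) and housekeeping genes had 7.02% (4 of 57, class mix 5.53%). NRF2 response genes had 7.60% (13 of 171, class mix 8.42%), where ME1, malic enzyme, had 2 of 3 missing, the 2 with AhR peaks. Mitochondrial flavoprotein genes had 9.43% (10 of 106, class mix 10.2%), with DLD, dihydrolipoamide dehydrogenase, at 3 of 7. Riboflavin transport and flavin synthesis genes had 3 of 12 (25%, 8.89 to 53.2%), near their class mix of 23.7%: RFK, riboflavin kinase, had its single region chr9:76375171-76375437, with an AhR peak, and the transporters SLC52A1 and SLC52A3 had 1 each. Endothelial marker genes had 17.6% (18 of 102, 11.46 to 26.2%, class mix 8.80%), with VWF at 6 of 26, ERG at 5 of 10 and PECAM1 at 4 of 36. The lower limit only just cleared the 11.41% of all assigned regions, and these intervals are too narrow. Macrophage and leukocyte markers had 19.1% (9 of 47, 10.4 to 32.5%, class mix 11.5%) and stellate cell and fibroblast markers 16.2% (6 of 37, 7.65 to 31.1%, class mix 12.1%), and both intervals hold the 11.4% of all assigned regions. Cholangiocyte markers had 8.75% (7 of 80, class mix 10.9%). Of the 16 lists, 11 lay below the 11.4% of all assigned regions, and several hold few regions, so their intervals are wide.

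**Figure D4:**
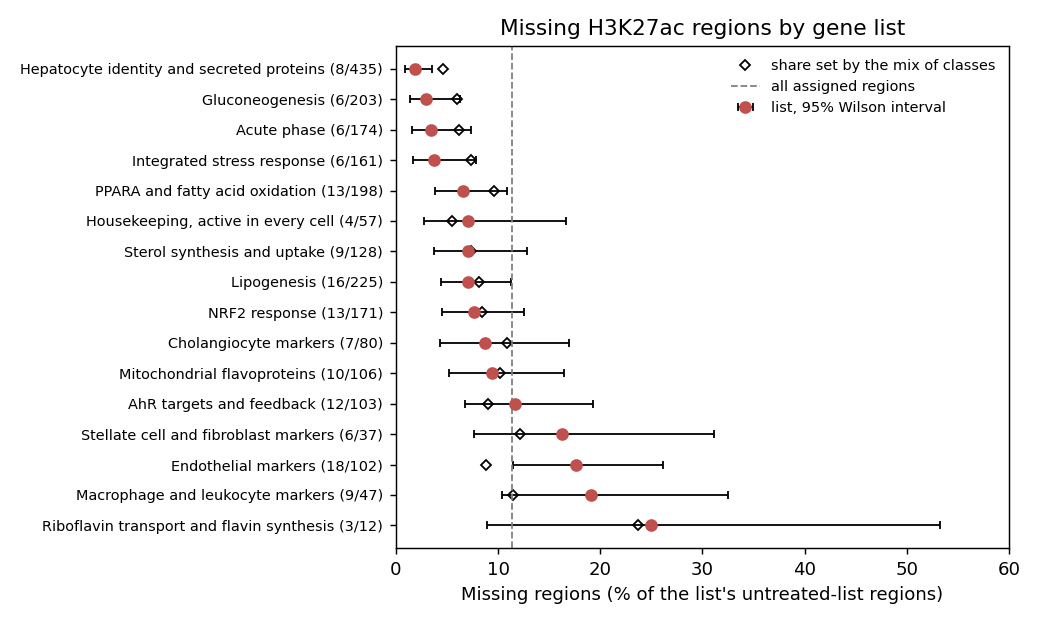
Percent of each gene list's untreated-list H3K27ac regions that were missing from the inhibitor list, with members and regions in brackets; points are shares, lines are 95% Wilson intervals, open diamonds are the share set by the list's mix of width, merge number and neighbour classes, and the dashed line is 11.4% over all assigned regions. Hepatocyte, gluconeogenesis, acute phase and stress response lists lie lowest, and the endothelial interval, 11.46 to 26.2%, only just clears the dashed line at 11.41%.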

How the data were processed

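The authors deposited peak lists of 5 columns (region name, chromosome, start, end and strand), and the deposited values are positions. Bowtie2 and HOMER, without versions, and hg38 are named per the submitters' processing notes. Per the labels' protocols, H3K27ac cells were crosslinked with formaldehyde, and AhR and C/EBPα cells with disuccinimidyl glutarate and then formaldehyde. The sources used here give no caller settings or filters. Depth is unknown. Mouse lists were not used here.

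Missing regions were found by exact coordinates. Overlap meant at least 1 bp, alternatives being 50% of the shorter region and centres within 500 bp. Regions went to the nearest RefSeq protein-coding gene within 50 kb (alternative 10 kb). Width is end minus start. The class mix is the average missing share over 9 width, 3 merge and 7 neighbour classes. It is calculated from the missing regions themselves, and the merge number may be lower by construction in them. The class mix is therefore a description and not an independent expectation.

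The members, gene lists and named genes were chosen with earlier results of these data known. Named were 5 AhR pathway genes (TIPARP, AHR, AHRR, CYP1A1 and CYP1B1), the 10 genes with the most missing regions, up to 3 per list, genes with 5 or more regions all missing, the longest runs and the widest members. Hepatocyte genes beyond the first 3 were named after their values were seen. Some genes that the rule names are not reported here. The overlap, neighbour and gene routines were checked on simulated regions. The work ran in Python 3.11.15 with pandas 2.3.3 and NumPy 2.4.6, intervals came from SciPy 1.17.1, and plots from Matplotlib 3.10.9.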

Additional observations from a re-analysis of the deposited data

How the results depend on the processing

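No paired analysis was possible because the lists hold no value per library, and for the same reason no library could be left out. AhR peaks lay on 24.3% of missing and 45.9% of shared regions by centres within 500 bp, 27% of missing and 45.9% of shared regions at merge number 2 or more, and 7.46% of missing and 20.8% of shared regions for merged AhR peaks. C/EBPα peaks lay on 16.5% of missing and 28.7% of shared regions by overlap of 50% of the shorter region, 18.5% of missing and 36.3% of shared regions by centres, 18.9% of missing and 34.7% of shared regions at merge number 2 or more, and 11.7% of missing and 22.5% of shared regions for merged C/EBPα peaks. The restrictions to merge number 1, to isolated regions and to the other chromosomes were chosen after seeing the data. At merge number 1, AhR peaks lay on 16.6% of missing and 15.6% of shared regions and C/EBPα peaks on 14.2% of missing and 13.9% of shared regions, so that missing minus shared was 1.03 and 0.233 percentage points, against -16.7 and -13.4 over all regions; the means over chromosomes were -0.914 and -0.684 points, of the opposite sign and within their SD, so no direction is read at merge number 1. With no other region within 10 kb, AhR peaks lay on 27.2% of missing and 44.7% of shared regions and C/EBPα peaks on 19.1% of missing and 31.3% of shared regions. Without chromosomes 2, 6, 14, 16, 17 and 20, picked for their low shares, AhR peaks lay on 24.3% of missing and 43.7% of shared regions and C/EBPα peaks on 17.9% of missing and 31.7% of shared regions. Within 1 kb of a gene end lay 2.44% of missing and 4.27% of shared regions. Missing regions with an inhibitor-list centre within 500 bp were 6.57%, and with runs limited to neighbours within 50 kb, 31.5% were in runs of 2 or more. Depth limits are unknown.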
